A study of Drosophila melanogaster with 3 samples.

Results

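Transfer RNA (tRNA) genes were examined as sites of Mabi binding in the early Drosophila melanogaster embryo. The binding of Mabi (CG15479) was measured by ChIP-seq (chromatin immunoprecipitation followed by sequencing), in which DNA bound to a protein is recovered with an antibody and sequenced. The material was whole embryos of both sexes, 0 to 4 h old, from 1 transgenic line with green fluorescent protein (GFP) fused to the C-terminus of Mabi, precipitated with anti-GFP. All samples shared this genotype, stage and treatment, so 3 biological replicates formed 1 group and no test between conditions was possible. The label for the antibody names CG15479 while the accompanying description names anti-GFP. The replicates stand for mixed cells of mixed stages, and whole embryos give no marker by which the labelled material could be checked in peak lists. Members were all genes of the annotation whose symbol begins with tRNA: on the main chromosome arms of genome build dm6. There were 295 of them among 18277 annotated genes, and 13968 of the others were protein-coding.

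Transfer RNAs carry amino acids to the ribosome and read codons through an anticodon of matching letters. Their genes are short, occur in many copies and are transcribed by RNA polymerase III. Promoter elements called the A box and the B box lie inside the transcribed region, where the factor TFIIIC binds them and brings in TFIIIB and the polymerase. Transcription ends in a short run of T downstream of the gene. Isoacceptors are tRNAs that carry the same amino acid on different anticodons, and the initiator tRNA (iMet) starts translation at the first methionine codon.

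The sequences below were chosen to show where 1 peak sat relative to its gene, and what genes with peaks nearby look like. All are 5′ to 3′ on the gene's strand, from the RefSeq copy of genome Release 6. The first is a window of 201 bp centred on the summit, the position of highest signal in a peak, with the bases of the tRNA gene in capitals. It was taken at tRNA:Asp-GTC-1-3, chr2L:8482082-8482282, minus strand, in an intron of dachs. The centre of the window fell just upstream of the capitals.
tRNA:Asp-GTC-1-3: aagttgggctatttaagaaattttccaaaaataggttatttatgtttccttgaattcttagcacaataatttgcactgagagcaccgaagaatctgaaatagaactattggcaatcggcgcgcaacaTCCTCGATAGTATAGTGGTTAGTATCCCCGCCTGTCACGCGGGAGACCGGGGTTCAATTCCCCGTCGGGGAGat
The other 5 are whole genes, with the anticodon in capitals, and each had an IDR summit within 1000 bp, in an interval that did not overlap the gene. They were chr3R:6819894-6819966 (plus strand), chr2L:8290727-8290799 (plus), chr2L:3173003-3173084 (minus), chrX:3427452-3427523 (minus) and chr2L:1965426-1965498 (plus), in the order shown. The lysine pair differ at 2 of 73 bases.
tRNA:Lys-TTT-2-1: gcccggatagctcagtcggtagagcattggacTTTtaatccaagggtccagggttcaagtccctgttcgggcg
tRNA:Lys-TTT-1-1: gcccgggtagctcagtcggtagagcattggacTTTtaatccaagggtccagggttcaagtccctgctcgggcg
tRNA:Ser-AGA-2-4: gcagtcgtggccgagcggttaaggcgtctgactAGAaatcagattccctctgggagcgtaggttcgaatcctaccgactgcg
tRNA:Gln-TTG-2-1: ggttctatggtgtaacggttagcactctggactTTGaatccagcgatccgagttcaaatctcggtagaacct
tRNA:Arg-TCT-2-1: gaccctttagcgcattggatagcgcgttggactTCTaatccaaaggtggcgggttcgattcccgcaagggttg

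The authors deposited 5 peak lists: 1 of 30000 peaks for each replicate, 1 of 30000 peaks from the pooled replicates, and an optimal list of 5049 peaks by irreproducible discovery rate (IDR), which keeps peaks whose ranks repeat between replicates. The 5049 IDR peaks were the 5049 strongest of the pooled list. A peak was assigned to a gene when its summit lay within 1000 bp of the gene's start. Peak strength is given as the authors' own signal value, whose scale is not stated, as its rank in the list, or as a multiple of that list's median. Read depth is unknown here. Intervals in brackets are 95% Wilson intervals that take genes as independent, which genes sharing a peak are not, and they do not measure the spread between replicates. All shares below are descriptions of these lists.

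Among the strongest, most repeatable peaks, tRNA genes were reached about as often as other genes at 1000 bp, and less often at 250 bp. An IDR summit lay within 1000 bp of 42 of 295 tRNA genes, 14.2% (10.7% to 18.7%), against 15.4% of the 17982 other annotated genes and 16.6% of protein-coding genes. Those backgrounds fall inside the interval of the tRNA share. Within 250 bp the share was 5.08% (3.11% to 8.22%), below the 8.37% of other genes and the 9.67% of protein-coding genes. At 100 bp (3.73%, 2.09% to 6.55%) and 500 bp (9.15%, 6.37% to 13.0%) the intervals held the shares of other genes, 4.28% and 11.5%. Replicates differed at 250 bp: the 5049 strongest peaks reached 10.8% of tRNA genes in replicate 1, against 7.16% of other genes. In replicate 2 the shares were 3.73% and 8.61%, and in replicate 3 they were 6.44% and 8.08%. The 42 genes were served by 32 distinct intervals with 34 summits, because 14 intervals lay near several tRNA genes, up to 3. Distinct intervals differ in their start or end but can overlap, as at tRNA:Lys-TTT-2-1, tRNA:Asn-GTT-1-7 and tRNA:Trp-CCA-2-3. Separate sites were therefore fewer than 32. All 42 also had a summit in each of the 3 replicate lists. This is close to given, because the IDR list keeps peaks that repeat between these replicates, and it is no separate support. Of the 32 intervals, 28 were nearer to a tRNA gene start than to a protein-coding start, and 7 lay within 1000 bp of a protein-coding start. The count of 28 is largely set by the rule, which took only summits within 1000 bp of a tRNA gene start. Starts of other gene types were not compared. Signal did not set these peaks apart: the median was 478 for the 34 summits at tRNA genes and 473 for the other 5015, and the best rank was 180.

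The strongest was at initiator methionine. tRNA:iMet-CAT-1-3 (3L, 743723 to 743794, minus strand) lies in an intron of hng3. Its signal was 9.01, 10.7 and 12.3 times the list median in replicates 1 to 3, ranks 278, 180 and 200 of 30000. The 3 replicates therefore placed it alike, near the top of each list. The IDR interval (744023 to 744916) had 2 summits within 1000 bp of the tRNA start. The stronger had a signal of 1669, and the one nearer to the tRNA start was 712 bp upstream of it. The nearest protein-coding start, of emc, was no nearer to either summit than 4684 bp.

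Next came an alanine pair, a serine gene and a lysine gene, all with a lower signal. tRNA:Ala-TGC-1-1 and tRNA:Ala-TGC-2-1, on 2R from 17391774 to 17392286, shared 1 IDR peak of signal 906, with multiples of 6.08, 5.51 and 6.89 in the 3 replicates. tRNA:Ser-AGA-2-4 had multiples of 4.45, 5.95 and 6.24, with its strongest summit 289 bp downstream of the start. tRNA:Lys-TTT-2-1 had multiples of 5.99, 4.99 and 6.23, with summits 661 and 860 bp upstream. In each of these cases the strongest summit lay outside the tRNA gene. The next genes were pairs. tRNA:Trp-CCA-2-2 and tRNA:Gly-GCC-1-9 (2R, 18639557 to 18639796) shared 2 intervals, the stronger with a summit 305 bp upstream of the tryptophan gene and the weaker 102 bp upstream. The stronger summit lay 18 bp from the start of CG30122, and the multiples were 5.30, 3.70 and 6.51. tRNA:Asn-GTT-1-7 and tRNA:Asn-GTT-1-8, back to back in an intron of Ptr, shared a summit 77 bp upstream of one and 93 bp upstream of the other, at multiples of 5.53, 4.64 and 4.00.

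At 3 other genes the summits lay within 100 bp of the start. tRNA:Ile-TAT-1-1 had summits at -5, -16 and 0 bp from its start in replicates 1 to 3, at multiples of 4.56, 4.69 and 3.67. tRNA:Trp-CCA-2-5, in an intron of Pu, had them at 55, 56 and 55 bp, at 4.89, 4.12 and 3.30. tRNA:Asp-GTC-1-3, printed above, had them at -39, -22 and -31 bp, at 3.25, 2.47 and 3.82. The replicates thus placed the summits of these genes close together. At the initiator gene tRNA:iMet-CAT-2-1, in an intron of Mmp2, the peak lay 930 bp upstream at multiples of 4.01, 4.10 and 3.61. tRNA:Gln-TTG-2-1 had multiples of 3.68, 5.41 and 3.98, and tRNA:Ala-AGC-2-8, whose peak lay 60 bp from the start of CG14322, had 3.41, 3.24 and 4.55.

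Other genes of the IDR list had weaker peaks or peaks that the replicates ranked less alike. tRNA:Gly-GCC-1-12, tRNA:Trp-CCA-2-3 and tRNA:Trp-CCA-2-4, together on 2R from 21161063 to 21161597, shared peaks at multiples of 5.77, 3.32 and 4.37, and 1 of these summits lay 73 bp from the start of CG30389. tRNA:Tyr-GTA-1-7 and tRNA:Tyr-GTA-1-8, in introns of p and CG8036, shared a peak at 4.61, 3.62 and 2.40. The peak of tRNA:Val-TAC-1-1 lay 73 bp from the start of CG46456 and varied between replicates, with 1.61 in replicate 1, 3.89 in replicate 2 and 2.83 in replicate 3. Replicate 2 was the lowest at several others. tRNA:Glu-TTC-1-4, tRNA:iMet-CAT-1-1 and tRNA:iMet-CAT-1-2 shared a peak at 3.47, 1.49 and 2.69. tRNA:Ser-TGA-1-1 and tRNA:Ser-TGA-2-1 shared one at 2.94, 1.59 and 2.62, with its summit 15 bp into the second gene. tRNA:Leu-CAG-1-5 and tRNA:Leu-CAG-1-6, in an intron of Sarm, had 2.71, 2.26 and 3.18. tRNA:Arg-TCT-2-1, in an intron of erm, had 2.55, 2.67 and 3.86, and tRNA:Thr-TGT-2-2 had 2.68, 1.95 and 2.09.

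**Figure D1:**
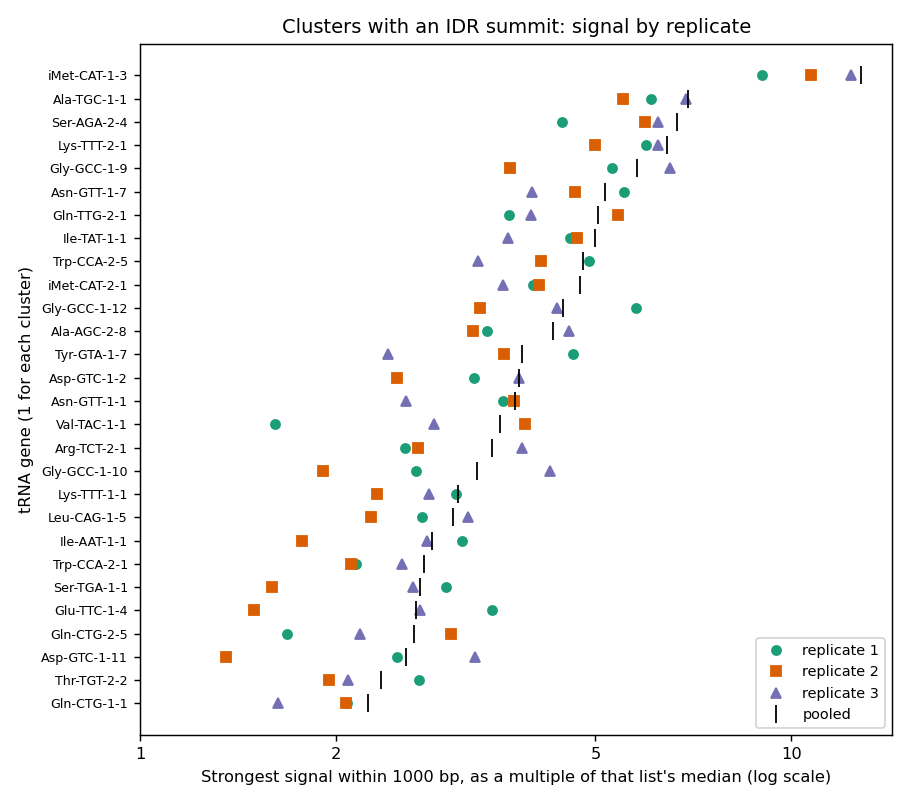
Signal of the strongest summit within 1000 bp, as a multiple of the median of its list (log axis), for 1 tRNA gene of each of the 28 clusters with an IDR summit, in replicates 1 to 3 (symbols) and in the pooled list (tick). tRNA:iMet-CAT-1-3 stands above all others in each replicate, and every point lies above a multiple of 1.

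The picture differed below the strongest peaks, where tRNA genes were reached more often than other genes. A pooled summit lay within 1000 bp of 219 tRNA genes, 74.2% (69.0% to 78.9%), against 51.9% of other genes and 55.1% of protein-coding genes. Of these 219, 177 had no IDR summit. In the replicates the count was 231 in replicate 1 (background 49.1%), 204 in replicate 2 (51.6%) and 234 in replicate 3 (51.1%), or 78.3%, 69.2% and 79.3% of tRNA genes. All 3 replicates held a summit at 173 genes, 58.6% (52.9% to 64.1%), against 38.1% of other genes. No replicate held one at 32 genes, 10.8%, against 36.9% of other genes, and 31 genes were absent from every list. The median pooled signal at tRNA genes was 1.15 times that of the whole list. Their 225 summits were spread over the list, with 33 in the strongest 5000 peaks, 56 in ranks 10001 to 15000 and 32 in the weakest 5000.

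The order of the shares changed with depth into the list. Among the 2500 strongest pooled peaks, 8.47% of tRNA genes and 8.13% of protein-coding genes had a summit. Among the 15000 strongest, the shares were 52.5% and 38.7%. Replicate 1 stood apart at the top: its 5049 strongest peaks reached 23.4% of tRNA genes and 14.8% of protein-coding genes, whereas replicate 2 gave 12.2% and 17.0% and replicate 3 gave 16.6% and 16.0%. The replicates therefore did not agree on whether tRNA genes exceeded protein-coding genes among the strongest peaks, while all 3 put tRNA genes ahead from 10000 peaks on at 1000 bp. With a window of 250 bp the order turned in replicate 2, whose 15000 strongest peaks reached 22.4% of tRNA genes and 22.9% of protein-coding genes, and in the pooled list at 10000 peaks, with 12.9% and 17.8%.

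**Figure D2:**
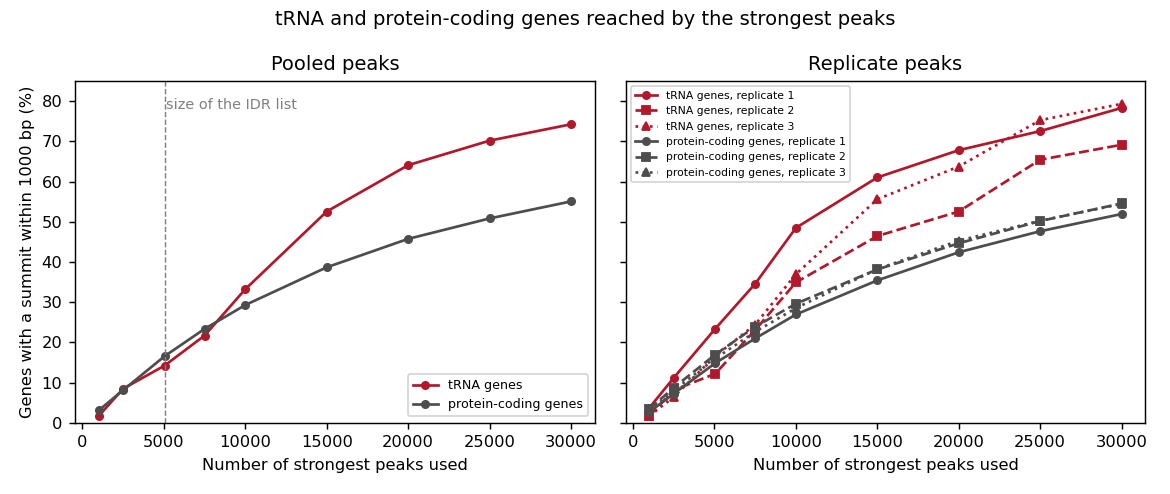
Percentage of tRNA genes (red, n = 295) and protein-coding genes (grey, n = 13968) with a summit within 1000 bp, against the number of strongest peaks used, in the pooled list (left, dashed line at 5049) and in each replicate (right). The curves run together up to 7500 pooled peaks and part by 15000, at 52.5% and 38.7%.

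The pooled share of tRNA genes varied with how many other tRNA gene starts lay nearby, and little with starts of other gene types. It was 74.9% of the 203 genes with no start of another gene type within 1000 bp and 72.8% of the 92 with one. Starts within 1000 bp of each other were joined into 177 clusters of tRNA genes, and a gene in a cluster can be counted through a peak nearest to a neighbour. Among the 188 genes in clusters of 2 or more, 84.6% had a pooled summit, and among the 107 genes alone in their cluster 56.1% (46.6% to 65.1%) had one. The lone genes were thus close to the 55.1% of protein-coding genes. Protein-coding genes varied with neighbouring starts of any type, from 42.3% where no other gene start lay within 1000 bp to 70.2% where one did. The 74 tRNA genes with neither a tRNA neighbour nor a start of another gene type nearby stood at 56.8% (45.4% to 67.4%), above that 42.3%, and at 44.6% in all 3 replicates, against 28.7%. In the IDR list the same 74 genes stood at 14.9% (8.51% to 24.7%), against 11.1%, an interval that holds the background. How far clustering accounts for the difference over all 295 genes was not tested. Counted by cluster, 119 of 177 clusters, 67.2%, had a pooled summit and 28, 15.8%, an IDR summit.

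**Figure D3:**
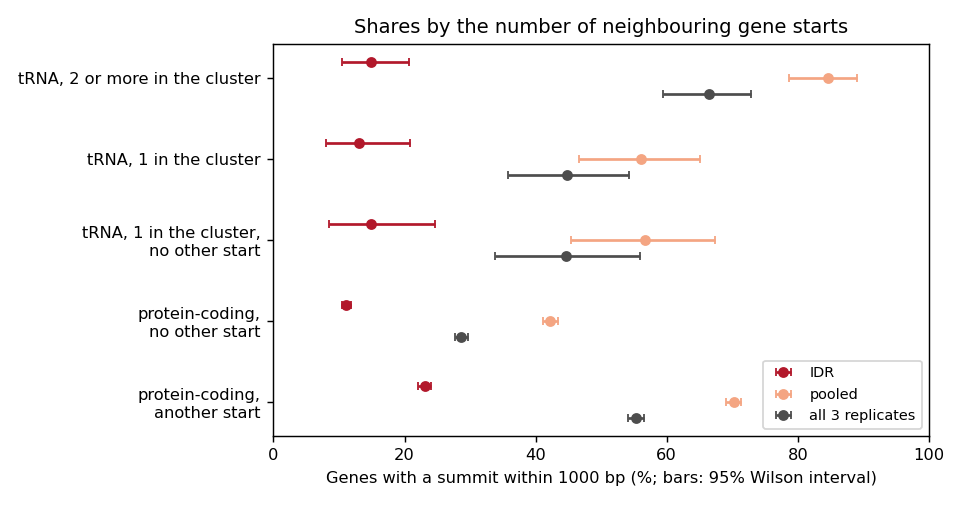
Percentage of genes with a summit within 1000 bp in the IDR list, the pooled list and all 3 replicate lists, by the number of neighbouring gene starts, with 95% Wilson intervals. In the pooled list, clustered tRNA genes (84.6%) lie above lone ones (56.1%), and lone tRNA genes with no other start (56.8%) lie above comparable protein-coding genes (42.3%).

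Pooled summits near tRNA genes were distributed about the start much as those near protein-coding genes were. The nearest summit lay a median of 13 bp upstream of the start, with quartiles at -231 and 143.5 bp, against a median of 30 bp upstream for protein-coding genes. Within 100 bp of the start there was a pooled summit at 74 tRNA genes, 25.1% (20.5% to 30.3%), against 19.3% of protein-coding and 16.7% of other genes. Replicate 1 had 98 such genes (33.2%, against 16.7% of protein-coding genes), replicate 2 had 57 (19.3%, against 17.7%) and replicate 3 had 72 (24.4%, against 19.8%). The interval in replicate 2, 15.2% to 24.2%, holds its background. Among genes that had a pooled summit at all, 33.8% of tRNA genes and 35.0% of protein-coding genes had it within 100 bp, and 56.6% and 61.7% within 250 bp. In the IDR list, 11 of the 42 genes had one within 100 bp and 15 within 250 bp, and 26 had it upstream.

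**Figure D4:**
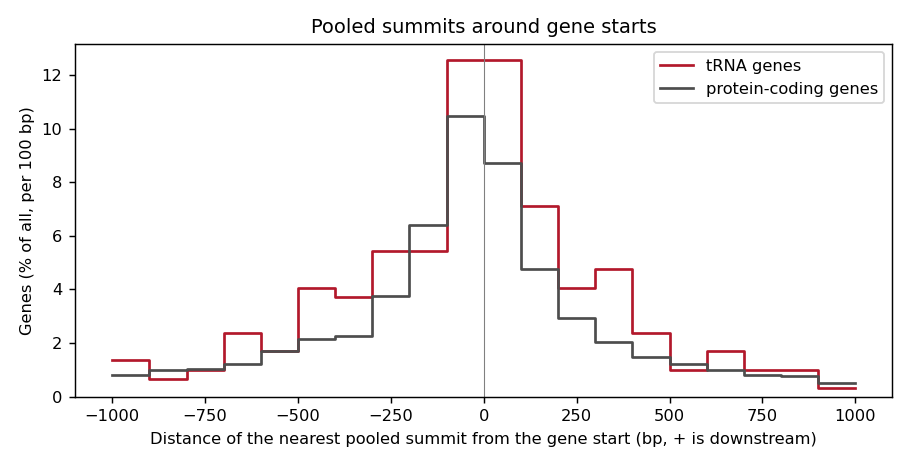
Distance of the nearest pooled summit from the gene start in bins of 100 bp, as a percentage of all tRNA genes (red) and all protein-coding genes (grey). Both peak at the start, where the bins on either side of it hold 12.5% of tRNA genes each, against 10.5% and 8.71% of protein-coding genes.

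The bases around the summits were searched for short words. The B box core GTTCGANNC, searched on both strands within 100 bp, was present at 20.9% of the 225 pooled summits near tRNA genes and at 1.56% of the 29775 others. The core is part of many tRNA genes themselves, found in 162 of the 295, so a window that covers such a gene holds it. Genes with these letters had an IDR summit in 11.7% of cases and genes without them in 17.3%, with overlapping intervals. The A box core TNGCNNAG was at 37.8% of the tRNA summits and 30.3% of the others. Words bound by general early-embryo factors were also counted. The Zelda word CAGGTAG was at 0.889% of pooled tRNA summits and 2.69% of others, and the GAGA word GAGAG at 25.8% and 26.8%. The DRE word TATCGATA was at 0.889% and 1.51%, although in the IDR list it was at 2 of 34 tRNA summits, 5.88%, and 2.05% of others, and the repeat CACACA at 16.0% and 23.4%. These are counts of letters in a window and say nothing of which factor was there.

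Amino acids differed in how many of their genes had strong peaks. Of the 22 classes (with iMet and selenocysteine, SeC, counted apart), 16 had at least 1 gene with an IDR summit. The highest shares were 4 of 6 for iMet, 5 of 8 for tryptophan and 5 of 10 for asparagine, which compare with 15.4% of other genes. Every member of these 3 classes had a summit in all 3 replicates, against 58.6% of all tRNA genes and 38.1% of other genes. For members with an IDR summit this is close to given, so it is no separate support. The lowest non-zero shares were 1 of 26 for arginine and 1 of 21 for glutamate. No IDR summit was found at any of 17 proline, 8 phenylalanine, 7 cysteine, 6 histidine and 6 elongator methionine genes, or at the single SeC gene. With so few genes a class, the intervals are wide: 30.6% to 86.3% for tryptophan, 23.7% to 76.3% for asparagine and 0% to 18.4% for proline. The 5 tryptophan genes had 6 distinct intervals, the 5 asparagine genes 3 and the 4 iMet genes 3. Those of tryptophan and of asparagine each included an overlapping pair. Leaving out a replicate kept only IDR peaks that overlapped, by at least 50% of either, the 5049 strongest peaks of both other replicates. The iMet count was then 2 without replicate 1, 4 without replicate 2 and 2 without replicate 3. It was 1 with a window of 250 bp. The tryptophan and asparagine counts were 5 whichever replicate was left out, and 4 and 3 at 250 bp.

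**Figure D5:**
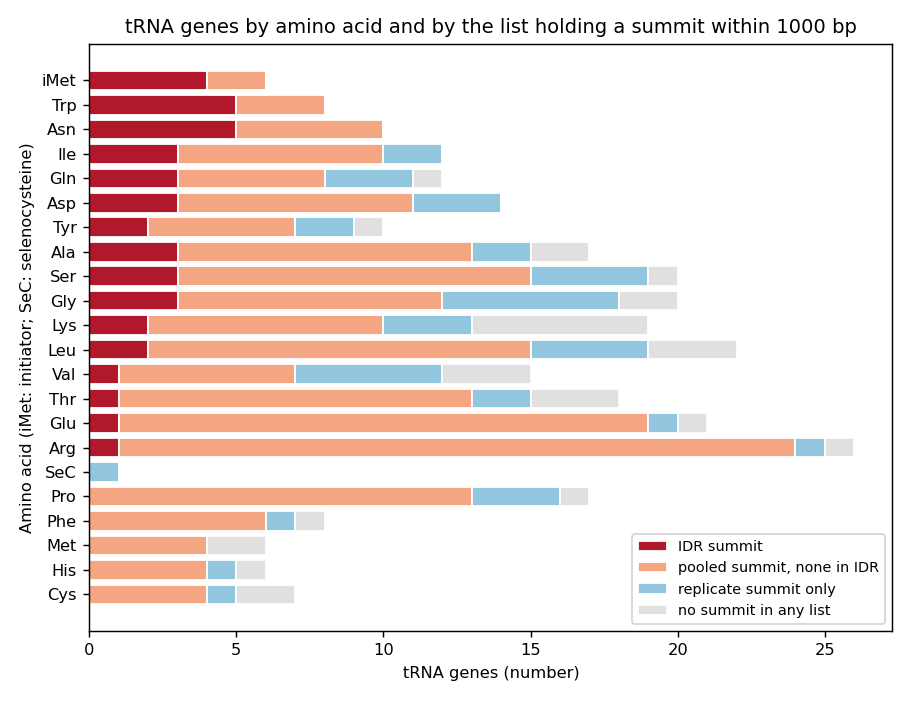
Number of tRNA genes of each amino acid, split by the most stringent list with a summit within 1000 bp (IDR, pooled without IDR, replicate only, none), sorted by the IDR share. iMet (4 of 6, but 2 without replicate 1 or replicate 3), tryptophan (5 of 8) and asparagine (5 of 10) head the order, and arginine has 1 of 26 in the IDR list but 24 of 26 in the pooled list.

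The weaker lists gave another order. Arginine, with 1 IDR gene, had a pooled summit at 24 of 26, and all 10 genes of anticodon ACG had one in all 3 replicates, with pooled multiples of 1.07 to 2.22. Glutamate had 19 of 21. Apart from the single SeC gene, which had none, the lowest shares were at valine (7 of 15, 46.7%) and lysine (10 of 19, 52.6%). Both lie near the 51.9% of other genes, with intervals of 24.8% to 69.9% and 31.7% to 72.7%. The strongest pooled summit near tRNA genes without an IDR summit was 1 summit on 2R shared by tRNA:Arg-ACG-1-2, tRNA:Asn-GTT-1-4, tRNA:Asn-GTT-1-5, tRNA:Asn-GTT-1-6 and tRNA:Lys-CTT-1-2, at a multiple of 2.22. tRNA:Phe-GAA-1-2 on X followed at 2.20. Both summits lay just outside the IDR list, at pooled ranks 5066 and 5147, and the weakest gene inside it, tRNA:Gln-CTG-1-1, was at rank 5020 with a multiple of 2.24.

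Gene copies with the same sequence did not have the same peaks. The 295 genes had 100 distinct sequences, and 238 had at least 1 identical copy. The handling of reads that fit several copies was not given in the sources used here, so the signal at any 1 copy is uncertain. Of the 5 identical copies of tRNA:Lys-TTT-2, the one printed above had a pooled multiple of 6.45 and the other 4 had no summit in any list. Of the 5 copies of tRNA:Ser-AGA-2, tRNA:Ser-AGA-2-4 had a pooled multiple of 6.66 and the others had no pooled summit. The IDR summits at these lysine and serine copies lay outside the gene, 661 and 860 bp and 289 bp from the start. These contrasts are therefore between the DNA flanking the copies. The 5 copies of tRNA:iMet-CAT-1 all had a pooled summit, at multiples from 1.44 to 12.8. The highest was that of tRNA:iMet-CAT-1-3, whose IDR interval did not overlap the gene either. In tryptophan, 5 of 6 copies of tRNA:Trp-CCA-2 had an IDR summit, and the 6 had pooled multiples of 1.37 to 5.79. tRNA:Asn-GTT-1 had an IDR summit at 5 of 10 copies, with multiples of 1.19 to 5.17.

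The largest clusters had no IDR summit. A cluster of 7 isoleucine and leucine genes on 2R, from 13430282 to 13432794, had a summit at all 7 in the pooled list and in each replicate but none in the IDR list, and a best pooled multiple of 1.76. The other cluster of that size, on X from 14014814 to 14017284 with 7 arginine and serine genes, had no IDR summit and a best multiple of 1.18, with a summit at 3 genes in replicate 1 and at 7 in replicates 2 and 3. A cluster of 6 cysteine and lysine genes (3L, 3095737 to 3097590) and a cluster of 6 asparagine and arginine genes (3R, 8139533 to 8141042) also had none, with best multiples of 0.882 and 1.55. All 10 clusters of 4 or more genes had a pooled summit, with a median best multiple of 1.58. The median was 1.21 for the 60 of 107 genes alone in their cluster that had one. A larger cluster takes the best peak from more windows, which by itself raises both its share and its best multiple. Among the 10, 1 cluster of 4 genes on 3R from 17645307 to 17646755 had an IDR summit, that of tRNA:Ala-AGC-2-8 at a multiple of 4.30. At a wider scale, 15 genes on 2R from 6152603 to 6178656 had an IDR summit at 4 and a pooled summit at 14. The shares of other genes were 15.4% and 51.9%. Only 2 IDR intervals served the 4 genes. One of these was shared by tRNA:Asn-GTT-1-1, tRNA:Asn-GTT-1-2 and tRNA:Asn-GTT-1-3, in an intron of EcR.

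By chromosome arm, 2R holds 100 of the genes and had an IDR summit at 23.0% of them (15.8% to 32.2%), 2L at 17.1% of 41, 3L at 12.2% of 49, 3R at 6.33% of 79 (2.73% to 14.0%) and X at 3.85% of 26. Other genes varied less by arm, with 15.2% on 2R, 14.6% on 2L, 16.0% on 3L, 15.8% on 3R and 16.1% on X. Genes on 1 arm often lie in shared clusters, so these are few independent sites. No member lay on chromosome 4 or Y. Genes within introns of other genes (16.9% of 130) and intergenic genes (12.7% of 157) had intervals that overlapped. The 16 tRNA genes with an intron of their own had an IDR summit at 4, or 25% (10.2% to 49.5%). The 279 without one stood at 13.6%, which that interval holds.

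Replicates differed over the glutamate genes. Of 15 genes of anticodon CTC, replicate 1 had a summit at 14, replicate 3 at 12 and replicate 2 at 6. A run of 6 identical copies of tRNA:Glu-CTC-3 on 3L from 1397695 to 1401852 had a summit at all 6 genes in replicates 1 and 3 and at none in replicate 2. Their multiples were low, 0.661 and 0.766 in replicate 1 and 0.805 and 0.911 in replicate 3, so they lay in the weaker part of each list. Of all 295 genes, 60 had a summit in 2 of the replicates and 30 in 1.

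Genes whose products make or use tRNA were looked at for comparison. Of 10 RNA polymerase III subunit genes, 2 had an IDR summit, among them Polr3E at a pooled multiple of 4.01, with the summit at -227 bp from its start. Of 10 genes for initiation factors and regulators, Bdp1, a subunit of TFIIIB, had one at a multiple of 5.63. Of 33 aminoacyl-tRNA synthetase genes, 5 had one, 15.2%: GlyRS (8.47), TyrRS (5.29), LeuRS-m (2.74), IleRS (2.69) and AspRS-m (2.52). These shares stood near the 16.6% of protein-coding genes. Of 29 genes for tRNA processing and modification, 11 had one, 37.9%. Among them were Rpp14b and Rpp14a (6.26 from 1 shared peak), of RNase P, and Trm7-34 (5.03), a tRNA methyltransferase.

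Other short genes of RNA polymerase III were also examined. snRNA:U6:96Aa and snRNA:U6:96Ab shared 1 IDR peak with tRNA:Asp-GTC-1-11, whose multiples were 2.48, 1.35 and 3.26 in the replicates. The summit was 15 bp downstream of the start of snRNA:U6:96Aa and 801 bp from that of the tRNA gene. RNaseMRP:RNA had an IDR summit at a multiple of 4.79, and both 7SL RNA genes had none in the pooled list. Of 96 5S ribosomal RNA genes, which lie in a tandem array of like copies, none had an IDR summit and 2 had a pooled summit. Those 2 lie at the end of the array next to a cluster of glutamate tRNA genes (2R, 19727460 to 19729353). Their strongest summits, 765 and 756 bp from the 5S starts, lay within that cluster. The small nucleolar RNA genes, often inside introns as many tRNA genes are, had an IDR summit at 18.6% of 269 and a pooled summit at 53.2%. A pooled summit lay within 100 bp of the start at 8.55% of them, against 25.1% of tRNA genes. The 32 small nuclear RNA genes stood no lower than tRNA genes. They had an IDR summit at 21.9% and a pooled summit at 81.25% (64.7% to 91.1%). Within 100 bp of the start, 31.25% (17.95% to 48.6%) of them had a pooled summit. Both intervals hold the tRNA shares, 74.2% and 25.1%. A high pooled share was thus not seen at tRNA genes alone.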

How the data were processed

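Per the labels, the 3 samples were biological replicates of anti-GFP precipitations, with chromatin sonicated to fragments of 200 to 800 bp. Per the file headers and the text files deposited with them, each peak list is on dm6, each replicate's peaks came from its own alignment and 1 control file used for all 3, the pooled list from the 3 alignments, and the IDR list from all of these. The authors deposited a signal value for each peak (scale not stated) and a −log10 q-value, which was not used for ranking. The aligner and peak caller were not given in the sources used here.

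Gene models came from Ensembl release 115, with transposable elements left out, and 1 start was used for each gene. Sequence came from the RefSeq copy of genome Release 6, whose arms all peaks fitted. Shares were computed in Python 3.11.15 with pandas 2.3.3 and scipy 1.17.1, tested on simulated peaks, and no test of significance was made. The members, the lists and the genes named or printed were chosen with earlier results of these data known: the gene nearest each of the 12 strongest IDR summits, the strongest of each amino acid, the 4 strongest pooled genes without an IDR summit, and the largest clusters. Some printed sequences and further genes were picked after their values were seen. Windows of 250, 500 and 2000 bp, the stronger 2524 IDR peaks and 15000 peaks of the other lists, overlap with the gene body, each replicate left out, other backgrounds, genes with no other start, and counts by cluster were tried. Alignments and the control were not analysed here, and some genes and sequences are not reported here.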

Additional observations from a re-analysis of the deposited data

How the results depend on the processing

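The numbers depend on the window more than on any replicate. Of 58 alternative values, 37 stayed close to the reported ones (counts within 1.5 times, the ratio and the median signal within their intervals) and 21 did not. Genes with an IDR summit numbered 15 at 250 bp, 27 at 500 bp, 25 with the stronger 2524 IDR peaks and 15 where the interval overlapped the gene body. Distinct IDR intervals numbered 13, 21, 16 and 13 under the same 4 settings. Genes with a pooled summit fell to 124 at 250 bp, to 131 by overlap, and to 119 clusters when each cluster counted once. Genes with a summit in all 3 replicates numbered 60 at 250 bp, 108 at 500 bp, 101 with the stronger 15000 peaks and 100 by cluster. The ratio of the tRNA share to that of other genes, 0.923 (0.694 to 1.21), was 0.608 at 250 bp and 0.629 by overlap, below the interval, and 1.25 against non-coding genes. The overlap ratio set whole tRNA genes against only the first 73 bp of each other gene. Amino acids with an IDR summit numbered 9 of 22 at 250 bp and by overlap. The median signal rose to 652.1 in the stronger IDR peaks, which that choice itself raises. Leaving out a replicate kept only the IDR peaks that overlapped the 5049 strongest peaks of both others, 76.4% to 80.6% of the list. The IDR counts could therefore only fall. They were 31 to 38 genes, 23 to 28 intervals and 14 to 15 amino acids, with ratios of 0.845 to 1.16 and median signals of 501 to 562. In the full lists of both other replicates, 182 to 209 genes had a summit. No paired analysis was possible because the series has 1 group. Read depth is unknown here, so the weakest peaks cannot be judged by their counts.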
